A study of Mus musculus with 10 samples.

Results

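A transcript cluster on an Affymetrix mouse Clariom D array is a group of short probes that together report one transcribed stretch of the genome. The array holds many clusters that its annotation pairs with no gene symbol, and the most brightly hybridised of these are described here. The members are the transcript clusters without a symbol whose mean over all 10 arrays lay above a fixed level, which is the upper quartile of such means over all 72688 features (5.658) rounded up to 2 decimals. The rule kept 4630 clusters. They are 14% of the 33185 clusters without a symbol, among 65770 clusters in all. Of the clusters with a symbol, 10951 (33.6%) lay above the same level. Members were thus chosen by their mean signal, with both groups included, so levels are given below as a description, and no count above the level supports a statement about them. The 3 members nearest the level from above, TC0400002428, TC0700003777 and TC1200000834, each had a mean of 5.661, and the 3 clusters nearest from below (TC0100003389, TC0900000915 and TC0X00002483) had means exactly at that rounded level. An ending common to all identifiers is left out here.

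The arrays were hybridised with RNA from skin wounds of diabetic db/db mice (BKS(D)-Leprdb/JOrlRj, listed with a C57BL/6 background), which carry a defective leptin receptor. All 10 animals were males aged 11 weeks. Each mouse had 2 full-thickness back wounds made with a 4 mm punch, and each wound was injected intradermally at 4 points with 0.5 nmol of miR-132 mimic (5 mice) or control mimic (5 mice) in 100 µl. Wound-edge tissue was collected 6 days after injury, so neither an unwounded nor a non-diabetic group enters the comparison. A local injection reaches a mixture of cell types, and in bulk tissue fewer cells of a type and less RNA per cell cannot be told apart.

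Transcription without a gene symbol can come from long noncoding RNAs, from the strand opposite a gene, from introns and extended ends of known transcripts, and from repeated sequences present in many copies. A cluster of this kind often follows the activity of the gene it lies in or beside. The microRNA miR-132 pairs through its seed, bases 2 to 8, with sites in target transcripts and lowers them. The RefSeq mature sequences of both arms (GRCm38.p6, plus strand of chromosome 11) are shown for reference, with the seed of each in capitals. The arms have different seeds, and printing both does not mean that both were delivered. The sequence of the injected duplex is not in the labels, and neither sequences nor positions of the clusters were used here.
mmu-miR-132-3p (chr11:75173723-75173744): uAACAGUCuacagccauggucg
mmu-miR-132-5p (chr11:75173686-75173707): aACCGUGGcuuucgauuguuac

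Values are deposited log2 signals, differences are miR-132 minus control on that scale, and each test is limma fitted to all 31365 clusters with a mean above 4.17. Among the arrays, miR-132 replicates 2 and 5 stood apart in the distance between the 10th and 90th percentile of all features of the array. It was 4.41 and 4.63 there, against 4.88 to 4.92 on the other miR-132 arrays and 4.81 to 5.03 on the controls. The median over members ran from 7.05 on miR-132 replicate 2 to 7.38 on miR-132 replicate 3, with 7.29 to 7.38 on the controls. Cell-type marker lists are given as the mean over their genes on each array. The wound-activated keratinocyte list, in which Krt16 is at the upper limit, averaged 15.03 (14.53 to 15.56) in controls and 13.94 (13.28 to 15.25) with miR-132, with 5 of 6 measured genes lower, each at an unadjusted p under 0.05. The basal keratinocyte list had all 8 genes lower (11.58, from 11.25 to 12.17, in controls and 11.33, from 11.02 to 11.79, with miR-132), 1 of them at an unadjusted p under 0.05. All 8 neutrophil markers were lower (list mean 10.63, from 9.62 to 11.69, in controls and 10.16, from 9.81 to 10.46, with miR-132), all 8 skeletal muscle markers were lower (12.09, from 10.22 to 13.31, and 11.56, from 9.90 to 13.47), and all 8 adipocyte markers were higher (8.61, from 7.69 to 10.16, and 9.23, from 7.68 to 11.30). The groups overlapped in each of these lists, and 0 genes of the neutrophil, muscle and adipocyte lists had an unadjusted p under 0.05. Other lists were mixed. Lower and higher genes numbered 4 and 3 for differentiated keratinocytes, 5 and 2 for fibroblasts, 3 and 5 for macrophages. They numbered 4 and 1 for endothelium, 5 and 1 for sebaceous gland and 1 and 5 for mast cells. All 5 measured B cell markers were higher. Of all clusters tested, 53.1% had a lower mean, and 4.73% were lower at an unadjusted p under 0.05. None of the 6 measured T cell markers lay above the level that defines the members. The part of cell composition in the member differences below was not tested.

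Most members lay not far above the level. The median member had a mean of 7.22 (quartiles 6.24 and 10.28), against 7.53 (6.44 and 9.55) for clusters with a symbol, and 2119 members (45.8%) lay at or below 7. A second, smaller group sat at the top of the scale, with 393 members (8.49%) above 16, compared with 612 (5.59%) of the clusters with a symbol. The deposited values end at 19.93, the log2 of 1000000, and a value there is only a lower bound. On at least 1 array 149 members reached it, and 120 did so on all 10. Because the probes of different clusters respond differently, these levels give no order of abundance between single clusters.

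**Figure D1:**
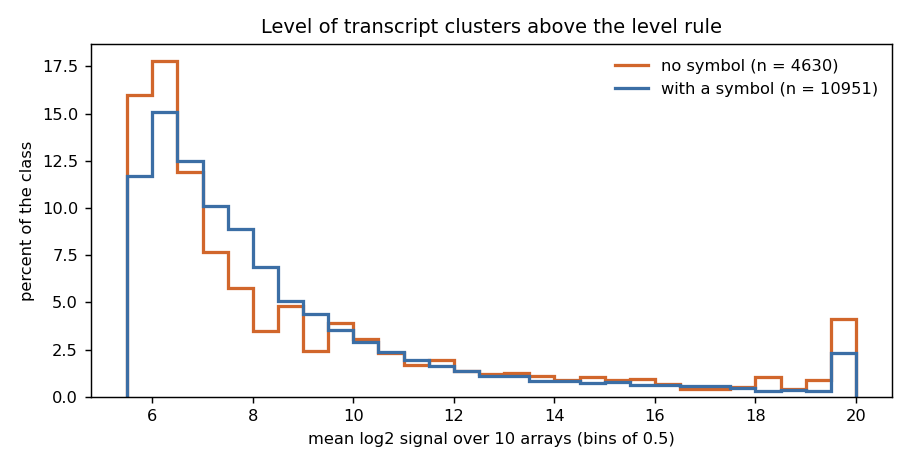
Distribution of the mean log2 signal over 10 arrays (x axis, bins of 0.5) as a percent of each class (y axis), for members in orange and clusters with a symbol in blue, all above the level. Both fall from a peak near the level, and a second peak in the last bin holds 4.1% of the members and 2.32% of the clusters with a symbol.

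The members were not 4630 separate measurements. A single value on all 10 arrays was found for 173 members, 53 of them below the upper limit. A further 458 members shared all 10 values, to the 2 deposited decimals, with at least 1 other member, in 76 sets. The largest set had 63 members spread over 18 chromosome codes, beginning with TC0100000118. Its values were 8.81, 9.55, 10.05, 10.39 and 9.24 on miR-132 replicates 1 to 5 and 10.16, 10.59, 9.85, 10.87 and 9.72 on the controls. The groups overlapped, and the difference was -0.63 ± 0.33 (SE, n = 5 per group; limma adjusted p = 0.686). Other large sets held 35, 30, 26 and 20 members, over 17, 14, 12 and 12 codes. Equal values across chromosomes mean that these clusters were not resolved from each other in the table. The members that varied between arrays gave 4075 distinct profiles, and the main counts of unadjusted calls and the medians by code are repeated below on distinct profiles.

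One family of shared profiles had a visible order. On code 10, which stands for chromosome 10, the 76 clusters between Il22 and Ifng, genes of 2 immune cytokines, held 31 members but only 13 distinct profiles. The profiles in this stretch recurred with a period of 7 identifiers: 27 of 69 clusters had exactly the values of the cluster 7 numbers on, while the next best period gave 13. Another stretch of the same code, between Rap1b and Iltifb, a second copy of the Il22 gene, repeated part of it backwards. All 31 clusters numbered 1377 to 1407 had the same 10 values as the clusters numbered 2981 down to 2951, and 13 of them were members. The reference gene table lists 12 pseudogenes and Iltifb between Il22 and Ifng.

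The clusters named Il22, Ifng and Iltifb themselves lay low, at control means of 4.03 ± 0.35, 3.28 ± 0.07 and 4.10 ± 0.19 (SD, n = 5), below the level of the members. The 46 members of both stretches had means from 5.74 to 8.73. They hold only 15 distinct profiles. Their differences ran from -0.73 to 0.60 with a median of 0.16, in which repeated profiles count more than once. Of the 46, 1 had an unadjusted p under 0.05, against 7.36% of all clusters tested. It was TC1000002946, which shares its values with no other cluster of the family. The brightest profile, that of TC1000001385, measured 9.08, 9.16, 8.81, 8.26 and 9.12 with miR-132 and 8.37, 8.43, 8.40, 9.23 and 8.45 in controls. Control replicate 4 was the highest and miR-132 replicate 4 the lowest of all 10, so the groups overlapped. The family was chosen after its values were seen.

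Codes differed in how many of their unnamed clusters were bright. The share of clusters without a symbol that were members lay between 10% (code 14) and 16.8% (code 04) on the 20 codes with at least 100 members, the 19 autosomes and the X chromosome. On those codes the median member level ran from 6.84 (code 09) to 8.5 (code 0X). The share of members above 16 ran from 3.66% on code 10 to 13.4% on code 08. Code 0Y, the Y chromosome, had 14 members among 300 clusters without a symbol (4.67%), and 8 of the 14 shared their profile with another member. Unplaced scaffolds had 29 members of 101 (28.7%).

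The mitochondrial code 0M stood at the other end, with 18 of its 19 clusters without a symbol among the members. The mitochondrial genome is transcribed along both strands into long precursors that are cut at the tRNAs, so stretches opposite genes and between them are copied too. The median member level there was 12.18, and 6 of 18 members (33.3%) lay above 16. TC0M00000010, TC0M00000019 and TC0M00000028 were at the upper limit on every array, and TC0M00000003 held the value 19.76 on all 10, so no difference could be read from these 4.

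Among the other mitochondrial members, TC0M00000014 measured 16.85, 16.90, 17.08, 17.52 and 17.09 with miR-132 and 16.89, 17.07, 16.09, 16.07 and 16.35 in controls. Control replicates 1 and 2 lay within the miR-132 range. The difference was 0.59 ± 0.22 (SE; limma adjusted p = 0.667). TC0M00000025, in the run of 9 consecutive members that precedes ND6, measured 9.90, 10.55, 11.24, 10.75 and 10.66 against 11.34, 11.57, 11.61, 10.88 and 11.05. Only miR-132 replicate 3 reached into the control range. This difference was -0.67 ± 0.25 (limma adjusted p = 0.667), the opposite sign to that of TC0M00000014. Of the 18 members, 9 were lower and 5 higher with miR-132, and the median difference was -0.05. TC0M00000014 and TC0M00000025 were named after their values were seen. They are the 1 higher and the 1 lower member of this code with an unadjusted p under 0.05. Of all clusters tested, 2.63% were higher and 4.73% lower at that p.

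Members varied more between mice than clusters with a symbol. The median within-group SD of a member was 0.28 in controls and 0.41 with miR-132, against 0.19 and 0.29 for clusters with a symbol. It was close to that of the 2225 clusters whose symbol is a predicted or clone name, at 0.26 and 0.44. The gap held at most levels: between 7 and 9 the pooled SD had a median of 0.42 for members and 0.26 for clusters with a symbol, and between 12 and 16 the medians were 0.54 and 0.51. Above 16, close to the upper limit, the order was the other way, 0.05 against 0.22. The miR-132 group had the larger SD for 3289 members (71%), compared with 73.3% of clusters with a symbol and 67.2% of all clusters tested. Without miR-132 replicates 2 and 5 the median SD of the miR-132 group was 0.33. That value rests on fewer arrays, where a median SD tends to be lower, so it cannot be set directly against 0.41.

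**Figure D2:**
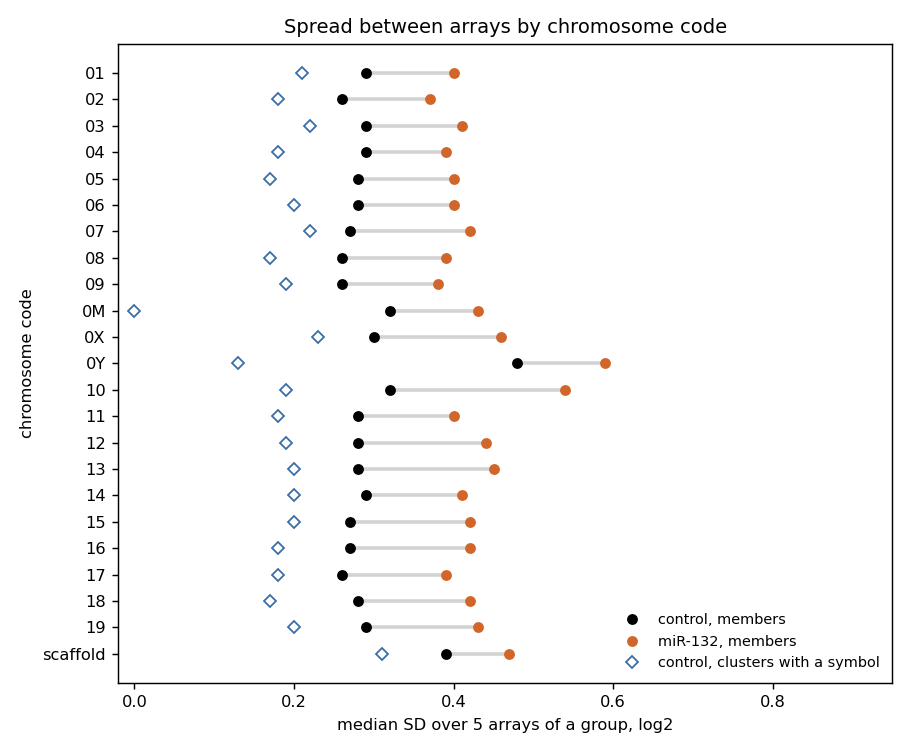
Median SD over the 5 arrays of a group (x axis, log2 signal) for members of each chromosome code (y axis), with controls in black and miR-132 in orange, and clusters with a symbol in controls as open blue diamonds. On all 20 codes with at least 100 members the miR-132 value (0.37 to 0.54) lies above the control value (0.26 to 0.32).

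The larger spread with miR-132 was found on each of the 20 codes with at least 100 members. Their control medians ran from 0.26 to 0.32 and their miR-132 medians from 0.37 to 0.54. Code 10 had the highest of both. Its Il22 family had medians of 0.53 and 0.69, and the other 200 members of code 10 had medians of 0.30 and 0.50.

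Which members differed between the mimics was asked across all tested clusters. None passed. Of 31365 clusters tested, 0 (0% called) had a limma adjusted p under 0.05, and 0 of 4630 members did; the same fit without an intensity trend also called 0. The lowest adjusted p of any member was 0.584. At an unadjusted p under 0.05, 365 members (7.88%) stood out, against 7.36% of all clusters tested. These p-values measure the spread between the 5 mice of each group.

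The unadjusted calls leaned to lower values with miR-132. Lower were 306 members (6.61%) against 4.73% of all clusters tested, and higher were 59 (1.27%) against 2.63%. The 306 had a median difference of -0.56, with 18 lower by more than a factor of 2, and the 59 had a median of 0.52, with 8 higher by more than a factor of 2. On distinct profiles the counts were 274 and 59. The lean was not particular to clusters without a symbol: of the 10951 clusters with one, 793 (7.24%) were lower and 71 (0.648%) higher. It also depended on scaling. Quantile normalization gave 307 such members, of which 175 were lower, centring each array on its median gave 533 with 501 lower, and leaving out miR-132 replicates 2 and 5 gave 472 with 298 lower.

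Groups that did not overlap were about as frequent as over all clusters on the lower side. All 5 miR-132 values lay below all 5 control values for 30 members (0.648%), against 0.609% of all clusters tested, and above them for 6 (0.13%), against 0.322%. The median difference over members was -0.10 (quartiles -0.30 and 0.04), with 2982 lower and 1460 higher. Over clusters with a symbol it was -0.07, and over all clusters tested -0.01. The member median was -0.02 after quantile normalization, -0.18 after median centring and -0.02 without miR-132 replicates 2 and 5.

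By chromosome code, the median difference was below 0 on all 20 codes with at least 100 members, from -0.22 on code 19 to -0.06 on codes 10 and 16. With quantile normalization the medians ran from -0.08 to 0.01, and 19 of the 20 were below 0. Only 14 of them were still below 0 when rounded to 2 decimals, and code 10 was at 0.01. Without repeated profiles the range was -0.20 to -0.06. The share of members with a lower mean ran from 57.7% on codes 10 and 16 to 75% on code 03. On 16 of the 20 codes the members had a lower median than the clusters with a symbol. On the X chromosome the members had a median of -0.13 and the clusters with a symbol -0.02. Members on scaffolds had a median of 0.07, with 16 of 29 higher and 0 at an unadjusted p under 0.05.

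**Figure D3:**
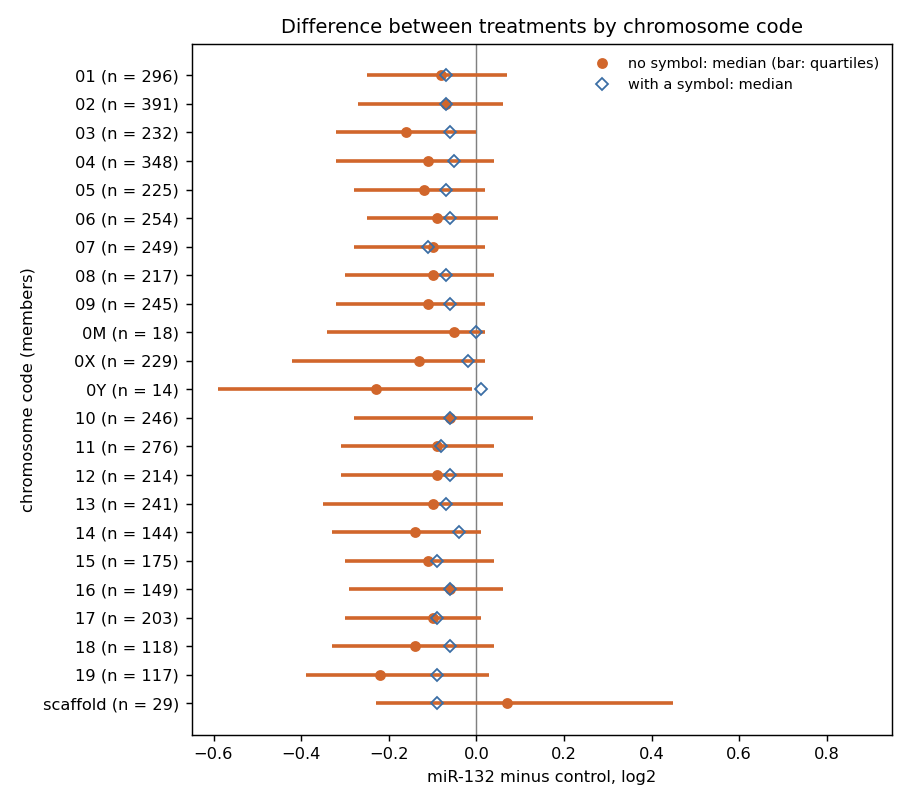
Difference of miR-132 minus control (x axis, log2) by chromosome code (y axis, number of members in brackets), as the median and quartiles of the members in orange and the median of clusters with a symbol as open blue diamonds. The median of code 19 lies at -0.22 and that of the scaffolds at 0.07, and the quartile bars of all codes overlap.

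Code 19 had the lowest median and the largest share of lower unadjusted calls with all arrays in. Its median was -0.10 without miR-132 replicate 2, where codes 03 and 18 were at -0.11, and -0.14 without control replicate 2, level with codes 03 and 14. Without control replicate 4 it was -0.17, and code 03 was at -0.18. Of its 117 members, 13 (11.1%) were lower and 3 higher at an unadjusted p under 0.05, and 4 had all miR-132 values below all control values. On distinct profiles 12 of 108 were lower. Of the 886 clusters tested on code 19, 6.09% were lower and 8 (0.903%) did not overlap on the lower side. Among the 13 were 4 of 6 consecutive members, TC1900000083 to TC1900000088, numbered between Ltbp3 and Slc25a45. The genes that the reference table lists in this interval include Malat1 and Neat1. Both are abundant nuclear long noncoding RNAs, and Neat1 is the scaffold of paraspeckles. Their own clusters are numbered in another part of the code, which follows the opposite strand.

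TC1900000086 measured 5.53, 5.75, 6.64, 4.90 and 6.10 on miR-132 replicates 1 to 5 and 7.35, 7.48, 7.54, 6.71 and 7.06 on the controls. Every miR-132 array lay below every control, with miR-132 replicate 3 and control replicate 4 closest to each other. The difference was -1.44 ± 0.30 (SE; a 2.72-fold lower mean, limma adjusted p = 0.666).

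TC1900000087 had its miR-132 arrays in the same order. It measured 6.79, 7.18, 8.71, 6.64 and 7.85 with miR-132 and 8.79, 9.47, 9.15, 8.08 and 9.17 in controls. Here miR-132 replicate 3 lay above control replicate 4, so the groups overlapped, and the difference was -1.5 ± 0.42 (limma adjusted p = 0.666). Deviations from the group means of these 2 members correlated at 0.91 over the 10 arrays.

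TC1900000088 measured 8.19, 7.79, 8.77, 8.20 and 7.59 against 9.67, 9.86, 8.79, 8.93 and 9.22. The groups did not overlap, by a margin of 2 hundredths between miR-132 replicate 3 and control replicate 3, and the difference was -1.19 ± 0.28 (limma adjusted p = 0.666). TC1900000083, TC1900000084 and TC1900000085 had smaller differences of -0.22, -0.45 and -0.46.

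The named cluster Neat1 measured 14.24, 14.69, 15.47, 13.77 and 14.00 with miR-132 and 15.30, 15.78, 15.07, 15.08 and 15.92 in controls. miR-132 replicate 3 alone reached into the control range. Its difference was -1.0 ± 0.32 (limma adjusted p = 0.666). The correlation of the 6 run members with Neat1 had a median of 0.43 (0.13 to 0.72). Malat1 was at the upper limit on all 10 arrays, so no difference could be read. Of 17392 clusters with 1 symbol, those most like TC1900000086 over the 10 arrays were Myo10, an unconventional myosin, and the tubulin genes Tubb6 and Tuba4a, each at a correlation of 0.94 between values. That measure holds the group difference, and the correlations of deviations from the group means, as used for Neat1, were 0.78, 0.84 and 0.78. A best match out of so many clusters over 10 arrays is high partly through the search itself, here and below. Tuba4a itself differed by -1.62 ± 0.35 (limma adjusted p = 0.666).

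**Figure D4:**
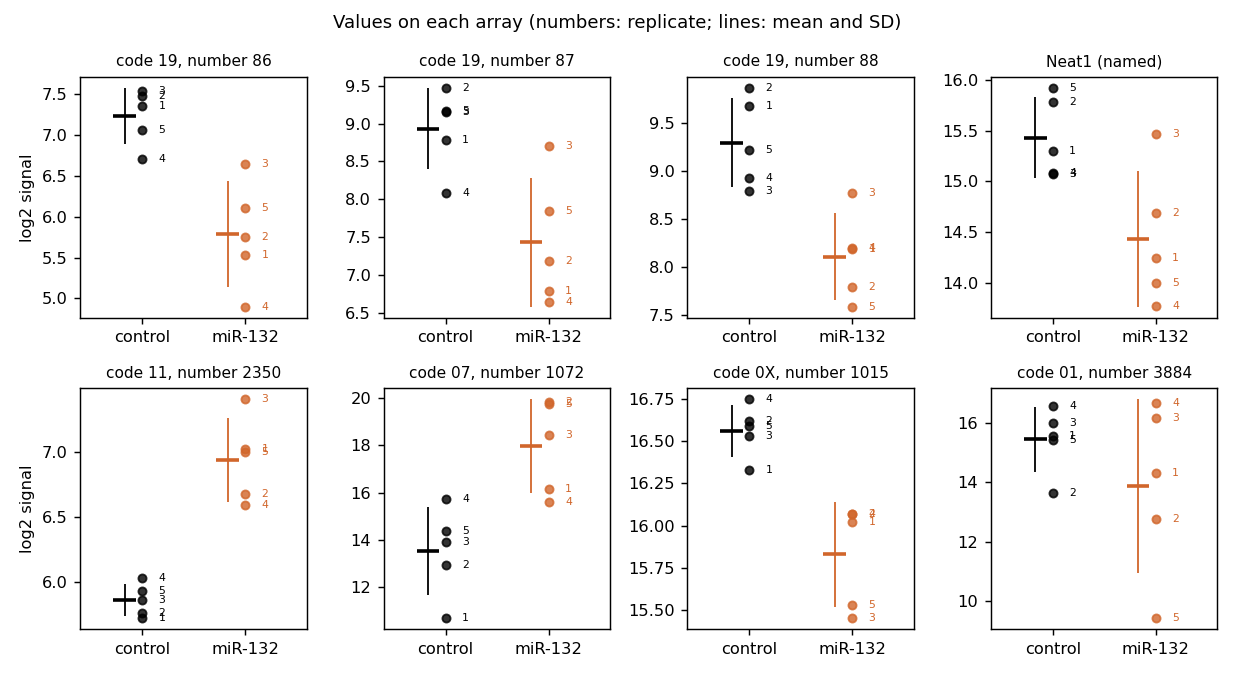
Log2 signal on each array (y axis, own scale per panel) for 7 members and Neat1, controls in black and miR-132 in orange, each point marked with its replicate number and each group with its mean and SD. The groups of TC1900000086, TC1900000088, TC1100002350 and TC0X00001015 do not overlap, and TC0100003884 has its lowest value, 9.44, on miR-132 replicate 5.

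The other lower members with the smallest p-values were scattered over codes. TC0900002876, between Atp1b3 and Rnf7, measured 6.07, 5.83, 5.75, 5.54 and 5.48 with miR-132 and 6.47, 6.70, 6.42, 6.33 and 6.23 in controls. The groups did not overlap. Its difference of -0.70 ± 0.13 had the smallest p of the lower members (limma adjusted p = 0.666).

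TC0X00001015 was far brighter than the other 5 of the 6 lower members with the smallest p-values. It measured 16.02, 16.07, 15.45, 16.07 and 15.53 with miR-132 and 16.33, 16.62, 16.53, 16.75 and 16.59 in controls. Every miR-132 array was below every control, by a difference of -0.74 ± 0.14 (limma adjusted p = 0.666). Its named neighbours are predicted genes, and neither followed it across arrays (correlations -0.19 and 0.14).

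TC0200004091 lies next to Ptprj, a receptor-type tyrosine phosphatase. It measured 6.94, 7.35, 7.65, 7.09 and 6.78 with miR-132 and 7.89, 8.15, 7.82, 8.77 and 8.32 in controls, again without overlap. The difference was -1.03 ± 0.22 (limma adjusted p = 0.666), while Ptprj differed by -0.40 ± 0.19 (limma adjusted p = 0.678) and correlated with the member at 0.71. TC1500000941 (-0.50 ± 0.11, no overlap) and TC1600000743 (-0.57 ± 0.13, with miR-132 replicate 3 at 6.40 above control replicate 3 at 6.38) completed the 6 smallest p-values.

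Members with a large lower mean were often variable ones. TC0100003884 had the largest difference of all lower members, -1.58, but its values were 14.30, 12.77, 16.15, 16.68 and 9.44 with miR-132 and 15.56, 13.65, 16.01, 16.58 and 15.44 in controls. miR-132 replicate 3 lay among the controls, replicate 4 above all of them, and replicates 2 and 5 below all of them. The test gave an adjusted p of 0.771 (SE 1.27), and without replicates 2 and 5 the difference was 0.26. Across arrays it followed Serpinb3a (correlation 0.99), a protease inhibitor of squamous epithelium, and the neighbouring Serpinb3c (0.98).

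TC1500001674 was 1.44 lower on the log2 scale, with 8.93, 9.09, 8.47, 9.80 and 9.16 against 10.23, 11.55, 10.42, 9.71 and 10.75. Only control replicate 4 fell within the miR-132 range (SE 0.35, limma adjusted p = 0.666). TC0500002645 follows Hopx, which encodes a homeodomain-only protein, and correlated with it at 0.89. It measured 6.74, 6.14, 9.39, 6.18 and 6.35 against 7.85, 6.64, 7.91, 9.75 and 9.56, so miR-132 replicate 3 stood with the highest controls (difference -1.38 ± 0.77, limma adjusted p = 0.697). That Hopx cluster differed by -0.36 ± 0.15 (limma adjusted p = 0.667). A second Hopx cluster, TC0500000737, was faint (mean 4.27) and differed by 0.15 ± 0.16 (limma adjusted p = 0.834).

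A pair of members in intervals that border or hold epidermal genes, named after their values were seen, were also lower. TC0300002395 is numbered between Sprr4 and Ivl, the gene of involucrin, a precursor of the cornified envelope. It measured 11.45, 11.45, 13, 11.99 and 10.87 with miR-132 and 13.52, 12.96, 12.96, 13.07 and 12.99 in controls. The controls were tight (SD 0.24) and miR-132 replicate 3 lay among them, with a difference of -1.35 ± 0.35 (limma adjusted p = 0.666). Sprr4 and Ivl differed by 0.04 and 0.16.

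TC1500001079 is numbered between Gm5477 and Krt18, an interval in which the reference table lists keratin genes including Krt6a, Krt6b and Krt5. The cluster of Krt5, TC1500002269, is numbered in another part of the code, which follows the opposite strand. It measured 5.05, 4.98, 6.78, 5.63 and 5.09 against 6.82, 7.0, 6.59, 6.61 and 6.54. miR-132 replicate 3 was again with the controls, and the difference was -1.21 ± 0.32 (limma adjusted p = 0.666). Without that array the difference was -1.52 ± 0.15 with an adjusted p of 0.0412, and TC1500001079 was then the 1 member called, among 4 clusters in all. The wound-activated keratinocyte markers Krt17, Sprr1a, Sprr1b, Hbegf and Defb14 differed by -1.45, -1.02, -1.41, -1.44 and -1.20 in the same comparison, and their part in these members' values was not tested.

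On the higher side, TC1100002350 had the smallest p of all 31365 clusters tested. It measured 7.03, 6.68, 7.41, 6.59 and 7.0 on miR-132 replicates 1 to 5 and 5.72, 5.76, 5.86, 6.03 and 5.93 on the controls. The lowest miR-132 array lay clearly above the highest control, and both groups were tight. The difference was 1.08 ± 0.15 (a 2.12-fold higher mean, limma adjusted p = 0.584), and it stayed between 0.96 and 1.17 under the alternatives tried. Its neighbours are Ehbp1, 16 numbers before, and the predicted gene Gm12058, and their correlations with it were -0.75 and -0.13.

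The largest difference of any member was that of TC0700001072, between Fam174b and Mir7234. It measured 16.17, 19.84, 18.46, 15.63 and 19.75 with miR-132 and 10.71, 12.97, 13.92, 15.74 and 14.37 in controls. Only miR-132 replicate 4 lay below a control, replicate 4. The difference was 4.43 ± 1.11 (21.5-fold, limma adjusted p = 0.666), with an SD of 1.87 in controls and 1.98 with miR-132. It was 3.21 without miR-132 replicates 2 and 5, which were the 2 highest arrays.

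TC0400002911, 35 numbers after Ptprd, measured 11.58, 11.25, 12.53, 10.99 and 11.90 against 9.57, 10.13, 10.52, 10.92 and 10.51. The groups did not overlap, and the difference was 1.32 ± 0.33 (limma adjusted p = 0.666). Its deviations followed those of TC1100002350 (correlation 0.91), a member of another chromosome. TC1200001840 was higher by 1.64 ± 0.38 (limma adjusted p = 0.666), TC0300000405 by 1.33 ± 0.37 (0.666) and TC1000001005 by 1.13 ± 0.41 (0.667), each with overlapping groups.

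The remaining higher members with small p-values differed less but with little spread. TC1500000071, 5 numbers after Lmbrd2, measured 9.37, 9.34, 9.11, 8.84 and 9.29 against 8.71, 8.58, 8.49, 8.49 and 8.40. The groups did not overlap (difference 0.66 ± 0.13, limma adjusted p = 0.666). TC1100003331 (0.28 ± 0.06), TC0200005005 (0.34 ± 0.08) and TC1600001095 (0.48 ± 0.12) were likewise higher on all 5 arrays than on any control. With TC1100002350, TC0400002911 and TC1500000071 these are the 6 members whose miR-132 values all exceeded the controls. The named clusters most like TC1100002350 over the 10 arrays were Gm8816, Lpar2 and Zfp248 (correlations of values 0.96, 0.91 and 0.90, and of deviations 0.72, 0.44 and 0.72), which were faint, with means of 4.33, 4.46 and 4.42.

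The identifiers carry an order that let members be set beside their neighbours. Of 18170 clusters with 1 symbol and a reference position, 99.8% lay on the chromosome of their code. Of consecutive named pairs, 98.9% lay on the same strand, and 99.2% of those ran in ascending order, so numbers mostly follow one strand of a chromosome and then the other. Most members stood alone, with 3243 having no member at the next number on either side, and 434 pairs and 142 longer runs made up the rest.

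Members with consecutive numbers varied together. Over the 10 arrays, deviations from the group means correlated with a median of 0.46 for 779 consecutive pairs, and 0.44 for the 761 of these whose profiles differ. The median was 0.17 at 2 to 5 numbers apart and 0.05 for members 50 members apart. Pairs with a named cluster were kept only where the nearest cluster with 1 symbol was itself above the level of the members. Among these, the cluster before a member on its strand correlated with it more closely than the one after it. The medians were 0.30 (2258 pairs) and 0.11 (1717 pairs), against 0.08 and 0.07 for the 50th named cluster above the level on either side. All pairs share the same 10 arrays, and the values are descriptions.

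**Figure D5:**
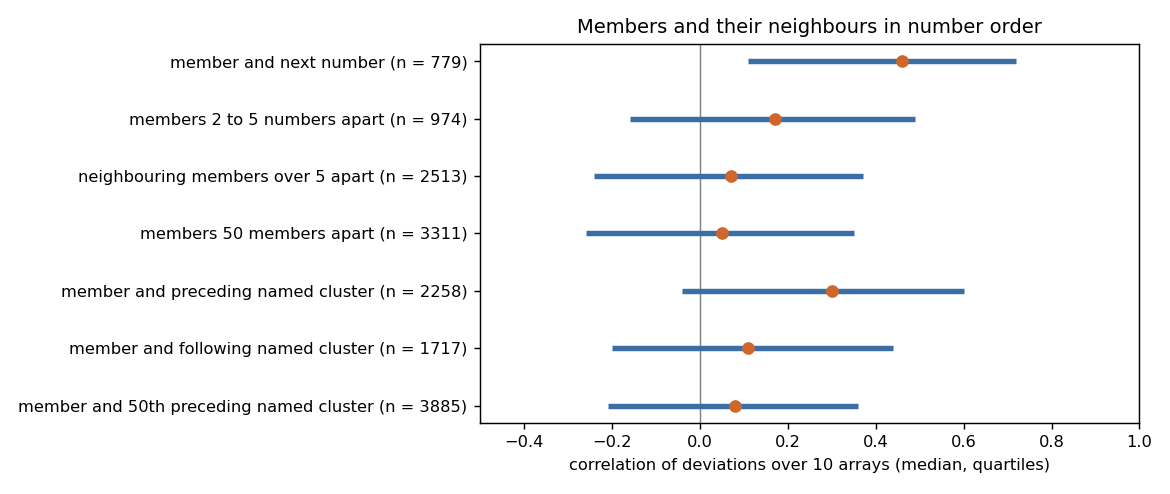
Correlation of deviations from the group means over 10 arrays (x axis), shown as the median (orange) and quartiles (blue) for pairs of members and of members with named clusters (y axis, number of pairs in brackets). Named clusters are those with 1 symbol that lie above the level of the members. Consecutive members have the highest median, 0.46, and the preceding named cluster (0.30) lies above the following one (0.11).

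The longest run held 10 members on code 17, between Efna5, the gene of an ephrin ligand, and Fbxl17, where the reference table lists 5 long noncoding RNA genes. Its members had means from 5.67 to 8.29 and a median correlation of 0.80 with each other. They followed Efna5 (median 0.78, 0.45 to 0.89) and not Fbxl17 (median -0.17). Fbxl17 was fainter, at a mean of 5.64 against 7.33 for Efna5. It varied little, with SDs of 0.08 in controls and 0.13 with miR-132, so it could show little covariation. TC1700002381, one of the brighter ones, measured 8.22, 8.02, 8.5, 6.79 and 6.80 with miR-132 and 7.82, 8.10, 7.59, 7.95 and 8.30 in controls. miR-132 replicates 4 and 5 lay below all controls and replicate 3 above them, and its difference was -0.29 ± 0.36. Efna5 measured 7.32, 7.13, 7.78, 7.14 and 6.75 against 7.43, 7.47, 7.31, 7.51 and 7.44, and 0 of the 10 run members had an unadjusted p under 0.05.

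Of the 22 runs with at least 5 members, 12 had every member lower and 10 did not, and 3 of the former follow. The 5 members between Ell2, a transcription elongation factor gene, and Glrx on code 13 correlated at a median of 0.84 with Ell2 (0.16 to 0.93) and 0.71 with Glrx. All 5 were lower, by 0.15 to 0.61 on the log2 scale, and Ell2 differed by -0.39 ± 0.17 (limma adjusted p = 0.673). The 8 members after Airn, the imprinted antisense RNA of the Igf2r locus, were all lower, by 0.11 to 0.65, and 3 had an unadjusted p under 0.05 (4.73% of all clusters tested were lower at that p). These members varied together, with a median correlation of 0.53, so the 3 are not separate observations. The largest difference was that of TC1700000131 (-0.65 ± 0.20, limma adjusted p = 0.666). Airn itself lay at a mean of 5.08, below the level of the members, and differed by -0.08 ± 0.06. The 8 members correlated with Airn at a median of 0.59 (0.14 to 0.88). The 6 members after Lrrc52 on code 01 were tightly tied to each other (median 0.84) and all lower, by 0.14 to 0.75, although Lrrc52 lay at a mean of 2.95, under the level for testing.

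The named clusters most like the most variable members included genes of red blood cells, muscle and fat. These are the closest of 17392 clusters over 10 arrays, so their correlations are high partly through that search. The closest clusters also included other genes, such as Slc37a4 for TC0200004369 and Asap2 for TC1100002474, each at 0.95. TC0700001506 measured 9.39, 7.14, 7.26, 8.26 and 11.13 with miR-132 and 8.16, 13.96, 5.87, 6.31 and 10.11 in controls, with control replicate 2 far above the rest. The named cluster most like it was Alas2, the erythroid enzyme of haem synthesis (correlation 0.93), and TC1100002474 followed Alas2 too (0.95). TC0200004369 measured 10.35, 12.07, 13.33, 11.49 and 7.83 against 13.36, 10.83, 13.60, 11.05 and 9.07. Its lowest values were on miR-132 replicate 5 and control replicate 5, and it followed the muscle genes Myh3 (0.98), an embryonic myosin, and Casq2 (0.97), calsequestrin.

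TC0300001670 followed Car3 (0.98), carbonic anhydrase of muscle and fat. It measured 12.96, 13.38, 9.61, 10.83 and 10.44 with miR-132 and 11.83, 11.78, 11.82, 8.11 and 12.73 in controls, and control replicate 4 was the lowest of all 10. Its difference was 0.19 ± 0.99 (limma adjusted p = 0.978), and the differences of TC0700001506, TC1100002474 and TC0200004369 were -0.25, -0.64 and -0.57 with SEs of 1.5, 1.05 and 1.15. For these members the spread between mice of a group was larger than the difference between the groups.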

How the data were processed

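Wound-edge RNA of 10 mice (5 per group, 150 ng each) was measured. RMA in Expression Console 1.4 (per the submitters' processing notes) made the deposited values, with background correction, normalization between arrays and probe summary as its steps. The deposited values were taken as log2 signal from their range and upper limit, since the labels do not state the scale. All columns matched a sample by label. The number of arrays limits the precision.

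Symbols came from the platform annotation: 30439 clusters had 1, 2146 several and 33185 none. Reference names and order came from GRCm38.p6, and no build for the clusters was used here. limma 3.58.1 in R 4.3.3 (lmFit, eBayes with trend, two-sided, Benjamini-Hochberg, threshold 0.05, no covariates) was fitted to 31365 clusters. It was tested on simulated data. Members were named by smallest p, largest difference, highest mean, largest SD, nearness to the level, and highest mean per code. Other members of runs, of shared profiles and of code 0M were named after their values were seen, as were those so marked. Members and lists were chosen with earlier results of these data known. Other scalings, filters and left-out arrays were tried as alternatives.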

Additional observations from a re-analysis of the deposited data

Results flagged for a closer look

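In 3 cases, 1 array of a group of 5 lay far from the other 4 among the 28 members checked in each group. Chance alone flags about 1 in 20 groups, and 56 groups were checked. TC0500002645 measured 9.39 on miR-132 replicate 3, with the other miR-132 arrays at 6.14 to 6.74. TC0300001670 measured 8.11 on control replicate 4, with the other controls at 11.78 to 12.73. TC1900000083, the first member of the code 19 run, measured 7.71 on miR-132 replicate 1, with the others at 8.03 to 8.14.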

How the results depend on the processing

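Alternatives were quantile normalization, median centring, leaving out each array or miR-132 replicates 2 and 5, a replicate block, no level filter, no intensity trend, a level of 7 and no scaffolds; 1 member per shared profile, and the spread without replicates 2 and 5, were added after seeing the data. No member was called under any of these except without miR-132 replicate 3 (1 member); the range over left-out arrays was 0 to 1. Lower members at an unadjusted p under 0.05 numbered 306, or 175 with quantile normalization, 501 with centring, 149 above 7, and 212 to 471 when 1 array was left out, with 465 without miR-132 replicate 3 and 471 without replicate 4. The level of 7 left out 2119 members, so the 149 lower calls above it come from a smaller set. Higher calls above it were 0.691% of all 4630 members, those left out included. With all members, higher ones made up 1.27%, or 2.85% with quantile normalization (307 members in either direction) and 0.691% with centring. They made up 3.76% without miR-132 replicates 2 and 5, and 0.907% to 2.55% when 1 array was left out, 2.55% being without replicate 2. Lower calls made up 83.8% of the calls in either direction, and 82.3% of those above 7. The share was 57% with quantile normalization, 94% with centring, 63.1% without replicates 2 and 5 and 71.8% without replicate 2. Of all clusters tested, 1084 were then lower and 907 higher with quantile normalization, and 2483 and 317 with centring, against 1484 and 825; centring moved the median of all clusters to -0.09 and no filter to 0.05. Non-overlapping members, lower and higher, numbered 68 and 3 with centring, 174 and 72 without replicates 2 and 5, and 40 to 144 and 9 to 26 when 1 array was left out, where smaller groups overlap less often; quantile normalization gave 22 and 21. Groups share replicate numbers 1 to 5, but same-number deviations correlated at only -0.06 to 0.16, and 1 of 5 numbers had its own partner as the best, so they were not taken as pairs. With the replicate block 393 members were lower and 71 higher, and 0 were called. For the 20 members named by smallest p or largest difference, 319 of 320 values kept their sign and call, and TC0100003884 was 0.26 without miR-132 replicates 2 and 5. The 1 member called without miR-132 replicate 3 was TC1500001079, which is not among the 20. Requiring every array above the level kept 3521 members. The cause of these shifts was not tested.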
